A study of Mus musculus with 51 samples.

Results

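The comparison of methylene diphenyl diisocyanate (MDI) with control in the lungs of C57BL/6 mice rested on 19 of the 51 arrays of the series, 13 from mice exposed to MDI and 6 from control mice, and took in all 22206 probe sets. The members were chosen by title: the C57BL/6 MDI arrays numbered 1 to 12 and 14 and the C57BL/6 control arrays numbered 1 to 6, none of them from mice given crofelemer, a chloride channel inhibitor used elsewhere in the series. Another 2 arrays, whose title and treatment labels contradict each other, were left out. For comparison, 6 arrays of BALB/c mice (labelled Balb/c, 3 MDI and 3 control) and 16 of B-cell deficient mice (strain B6.129S2-Ighmtm1Cgn/J, whose Ighm gene is disrupted, 7 MDI and 9 control) were used. Those mice were also male, aged 6 to 8 weeks and given no crofelemer, and their groups differed in the airway solution as described next.

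All 19 arrays came from male C57BL/6 mice aged 6 to 8 weeks. Both groups had MDI on the skin first, 2 applications of 1% in acetone on the shaved back, so the controls were sensitized too. The groups differed in what was given into the airway of the anaesthetized (isoflurane) mice, on days 15, 16, 19 and 20. MDI mice received MDI that had been reacted together with glutathione, and control mice received a solution in which MDI and glutathione had each been reacted apart. Perfused and lavaged lung was taken 48 h after the last exposure, and 250 ng of RNA was labelled for an Affymetrix-type array. The comparison asks what the airway exposure does to the lung of a mouse already sensitized through the skin. The labels do not say whether each array is a separate mouse, so p-values measure the spread between arrays.

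MDI is a building block of polyurethane and a known cause of occupational asthma. In type 2 airway inflammation, T helper and innate lymphoid cells release IL-4, IL-5 and IL-13. IL-13 and IL-4 act through STAT6 to turn airway secretory cells into goblet cells and to raise alternatively activated macrophages, while IL-5 and the eotaxins bring in eosinophils.

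Array means lay between 7.48 and 7.51 on the deposited log2 scale, with values from 2.36 to 19.92, and no pair of arrays was identical. MDI 1 stood apart, with the narrowest spread of the 19 (SD 3.06, against 3.16 to 3.29) and a median correlation of 0.982 with the other MDI arrays, against 0.988 to 0.993 for every other array with its group. MDI 14 carries 1 label that names control products, while its title, description and exposure label say MDI. It was kept as the title has it. The records fall into blocks of consecutive numbers that the labels do not name as batches. Controls 1 to 4 and MDI 1 to 12 were in the first block, and controls 5 and 6 and MDI 14 in the third. The lung markers Sftpc, a surfactant protein, and Scgb1a1, the main club cell secretory protein, stood at 19.41 to 19.63 and 19.48 to 19.86 on the 19 arrays. These values are at the top of the scale. The Y-linked genes Eif2s3y, Kdm5d and Uty had a mean of 9.75 to 10.40 in controls and 9.87 to 10.76 in MDI arrays, as the male label has it.

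Airway exposure to MDI shifted a large share of the lung transcriptome, and the largest shifts were upward. Of 22206 probe sets, limma called 3225 changed at an adjusted p under 0.05 (14.5%), 1176 higher (5.3%) and 2049 lower (9.23%). Rises of at least 2-fold numbered 214 (0.964%) and falls of at least 2-fold 119 (0.536%). At 8-fold or more, 19 probe sets rose and 0 fell, and at 4-fold or more 44 rose and 6 fell. Most calls were small: 2892 were under 2-fold, and the median called rise and fall were 0.56 and -0.53 on the log2 scale. The median over all probe sets was 0.0073. All 13 MDI arrays lay above all 6 controls for 102 probe sets (0.459%) and below them for 137 (0.617%). With each array centred on its median, 49.4% of 3182 calls were higher, against 36.5% as deposited. The share was 43.8% of 2991 calls with quantile normalization within sets. The balance of rises and falls thus varied with the scaling. Fitted without the other groups, the 19 arrays alone gave 2192 calls, the first block alone 1532 and block as a fixed term 1585. Values for C57BL/6 in the first block or with the block term below come from such fits. For them 2192 is a nearer comparison than 3225. Without MDI 1 there were 2930 calls and without MDI 14 there were 3315. Counts of genes below are to be read against 5.37% of 19505 genes that rose and 9.79% that fell. With dim probe sets left out the background itself leaned to falls, with 898 of 11103 probe sets higher and 1984 lower and a median of -0.067. The perfused and lavaged lung mixes many cell types, so more or fewer cells of a type and more or less RNA per cell cannot be told apart here. Cells removed by the lavage were not measured.

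**Figure D1:**
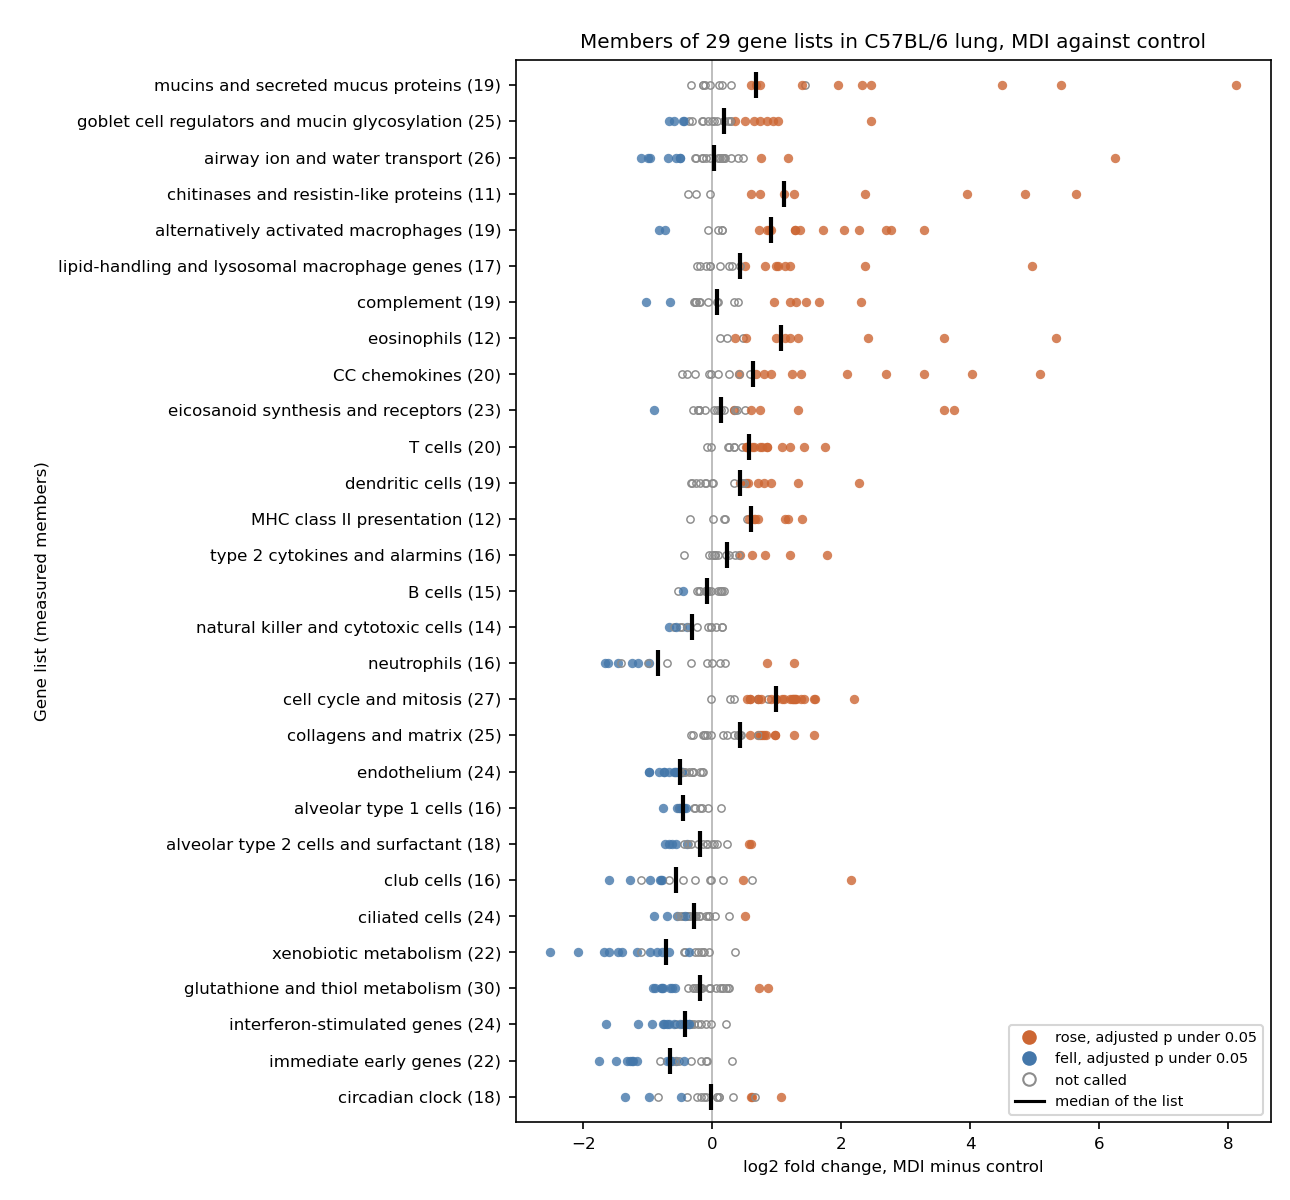
Log2 fold change of each measured member of 29 gene lists (horizontal axis, MDI minus control, 13 against 6 arrays). Filled points passed an adjusted p of 0.05, open points did not, and black bars are list medians. Mucus, chitinase, eosinophil and cell cycle lists extend to the right, and endothelial, xenobiotic and immediate early lists lie to the left.

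The gene with the largest rise, Clca1, belongs to airway mucus and the goblet cell. Of 19 measured genes of mucins and secreted mucus proteins, 10 rose and 0 fell, with a median of 0.68. Clca1, a secreted protease of goblet cells that acts on mucus, stood at 6.47 to 13.42 (median 9.45) in controls and 16.41 to 19.00 (median 17.27) in MDI arrays on the log2 scale. Every MDI array was above every control, and control 2 was the highest control. Clca1 rose by 8.12 ± 0.66 (adjusted p = 1.42e-13). Controls 5 and 6, of the third block, had the lowest Clca1 of the 6, and within the first block the rise was 6.87. Muc5ac, the gel-forming mucin of goblet cells, stood at 5.10 to 7.04 (median 5.74) in controls and 9.13 to 12.50 (median 11.57) in MDI arrays and rose by 5.41 ± 0.39 (adjusted p = 3.07e-15). MDI 14 was the lowest MDI array and control 2 the highest control, without overlap. Fcgbp, which binds and cross-links mucins, stood at 6.49 to 8.52 (median 6.95) in controls and 10.25 to 12.66 (median 11.78) in MDI arrays. It rose by 4.49 ± 0.28 (adjusted p = 3.62e-17), the largest moderated t of all genes that rose. Agr2, a folding enzyme of the endoplasmic reticulum needed for mucin assembly, rose by 2.46 ± 0.27, and the trefoil peptide Tff2, which is secreted with mucus, rose by 2.32 ± 0.37. For Tff2, 9 of 13 MDI arrays were above the highest control, and for Agr2 12 of 13.

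**Figure D2:**
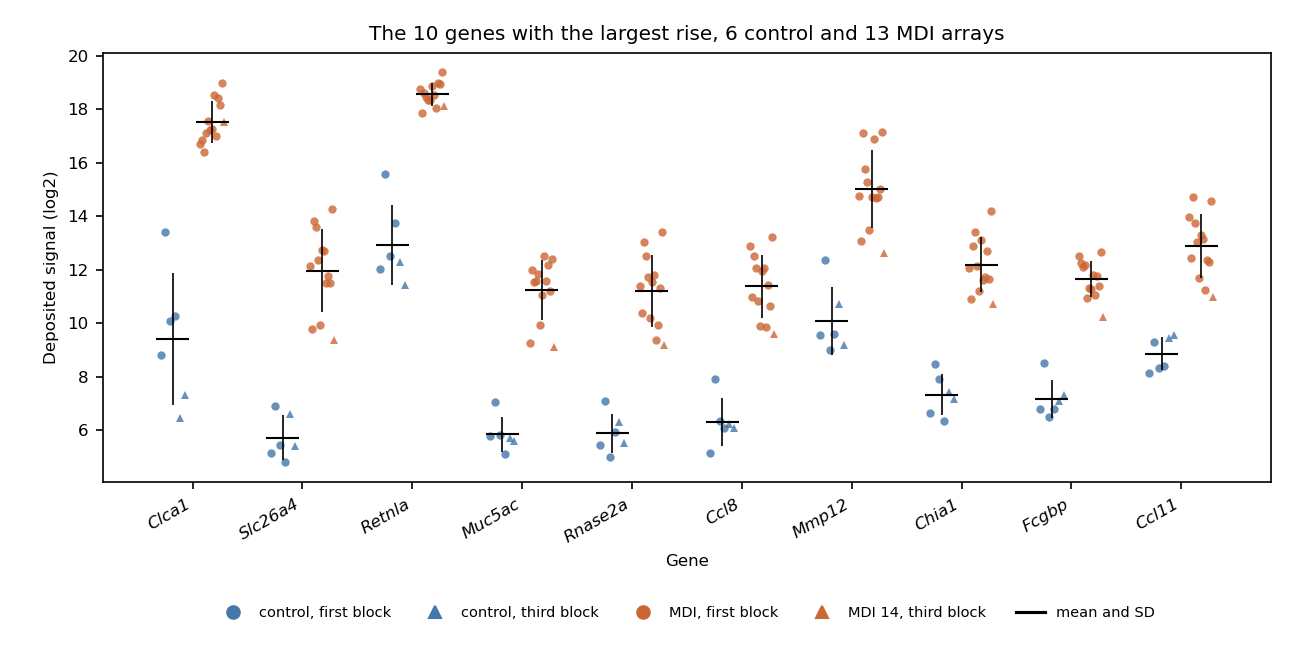
Deposited log2 signal (vertical axis) of the 10 genes with the largest rise on each array, 6 controls in blue and 13 MDI arrays in orange, with mean and SD. Triangles are arrays of the third block. In all 10 genes every MDI array lies above every control, and MDI 14 is the lowest MDI array in 8.

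Goblet cell regulators moved in both directions. Of 25 goblet cell regulators and mucin glycosylation genes, 8 rose and 4 fell, with a median of 0.18. With dim probe sets left out the balance turned, and 2 of 14 rose and 6 fell, with a median of -0.15. In that setting falls also led over all probe sets, at 1984 against 898 rises of 11103. Spdef, a transcription factor of goblet cell differentiation, stood at 4.94 to 5.53 (median 5.12) in controls and 5.57 to 6.47 (median 6.01) in MDI arrays, with no overlap, and rose by 0.85 ± 0.13 (adjusted p = 1.4e-05). Fut2, which adds fucose to mucins, had no overlap either, at 3.74 to 4.39 (median 3.98) against 4.48 to 5.40 (median 5.02), and rose by 1.02 ± 0.14 (adjusted p = 1.24e-06). Both genes lay below the array medians of 6.86 to 7.01, Fut2 in the low part of the scale, and no detection call is given. The glycosyltransferases Galnt6 and Gcnt1 rose by 0.74 ± 0.14 and 0.94 ± 0.20. Foxa2, a transcription factor that restrains goblet cell differentiation in the airway, fell by 0.66 ± 0.17 (adjusted p = 0.00462), with 7 of 13 MDI arrays below the lowest control. Within the first block 5 of the list rose and 2 fell, and without control 1 the number that fell was 2. Pigr, the receptor that carries polymeric antibody across the epithelium, stood at 9.77 to 11.40 (median 10.16) in controls and 11.83 to 13.86 (median 12.95) in MDI arrays. It did not overlap between the groups and rose by 2.49 ± 0.22 (adjusted p = 4.15e-12).

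Airway ion and water transport genes moved both ways, and 1 of them rose far more than the rest. Of 26 airway ion and water transport genes, 3 rose and 7 fell, with a median of 0.03. With dim probe sets left out 1 of 15 rose and 7 fell, with a median of -0.27, where 898 of 11103 probe sets rose and 1984 fell. Slc26a4 (pendrin), an anion exchanger of the airway surface, stood at 4.80 to 6.92 (median 5.42) in controls and 9.38 to 14.26 (median 12.13) in MDI arrays. The groups did not overlap, and it rose by 6.24 ± 0.48 (adjusted p = 3.76e-14). Aqp3, a water and glycerol channel of basal cells, rose by 1.18 ± 0.22 (adjusted p = 0.000113) without overlap. The potassium channel Kcnn4 rose by 0.75 ± 0.20 (adjusted p = 0.0085), a call that the first block alone did not give (adjusted p = 0.106). All 3 subunits of the epithelial sodium channel ENaC, which absorbs sodium and so dries the airway surface, fell. Scnn1b stood at 11.12 to 11.79 (median 11.33) in controls and 9.65 to 10.74 (median 10.29) in MDI arrays, with every MDI array below every control, and fell by 1.10 ± 0.16 (adjusted p = 2.73e-06). Scnn1a fell by 0.57 ± 0.11 and Scnn1g fell by 0.69 ± 0.14, with 11 and 9 of 13 MDI arrays below the lowest control. The chloride transporter Slc26a9 fell by 0.96 ± 0.23 and the water channel Aqp4 fell by 0.99 ± 0.22. Cftr, the chloride channel mutated in cystic fibrosis, stood at 10.02 to 10.64 (median 10.32) in controls and 9.66 to 11.20 (median 10.46) in MDI arrays, a difference of 0.16 ± 0.18 (adjusted p = 0.615).

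Chitinases and resistin-like proteins, secreted by macrophages and epithelium in type 2 inflammation, rose in most members. Of 11 measured, 8 rose and 0 fell, with a median of 1.12, and within the first block 6 rose, with a median of 0.725. Retnla (FIZZ1), a resistin-like secreted protein, stood at 11.43 to 15.58 (median 12.40) in controls and 17.85 to 19.39 (median 18.54) in MDI arrays. The groups did not overlap, though control 2, at 15.58, was well above the other controls. Retnla rose by 5.63 ± 0.39 (adjusted p = 7.83e-16). Chia1, the acidic chitinase, stood at 6.36 to 8.46 (median 7.30) in controls and 10.74 to 14.21 (median 12.07) in MDI arrays and rose by 4.85 ± 0.37 (adjusted p = 1.54e-14). The chitinase-like lectins Chil4, Chil3 and Chil1 also did not overlap between groups. Chil4 rose by 3.95 ± 0.32, Chil3 by 2.37 ± 0.22 and Chil1 by 1.12 ± 0.14. Chil3 lay at 17.82 to 19.27 in MDI arrays, high on the scale, and for all 3 MDI 14 was the lowest MDI array and control 2 the highest control.

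Retnla and the chemokine Ccl17 are the 2 of the 20 largest rises whose upstream sequence holds TTC and GAA with 4 bases between them, the half-sites and spacing that STAT6 is known to prefer, so both are shown. The sequences are the 250 bases before the start of the gene in RefSeq (GRCm38.p6), read 5′ to 3′ on the strand of the gene, with the match in capitals. The motif reads the same on both strands. Retnla lies at chr16:48842359-48842608 (plus strand), with the match from -145 relative to the start, and Ccl17 at chr8:94810203-94810452 (plus strand), with the match from -154.
Retnla: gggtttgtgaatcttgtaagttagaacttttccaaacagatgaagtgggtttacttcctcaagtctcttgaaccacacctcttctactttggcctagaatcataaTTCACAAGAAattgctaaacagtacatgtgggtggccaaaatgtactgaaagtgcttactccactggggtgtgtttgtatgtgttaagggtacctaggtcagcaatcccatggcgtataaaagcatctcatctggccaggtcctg
Ccl17: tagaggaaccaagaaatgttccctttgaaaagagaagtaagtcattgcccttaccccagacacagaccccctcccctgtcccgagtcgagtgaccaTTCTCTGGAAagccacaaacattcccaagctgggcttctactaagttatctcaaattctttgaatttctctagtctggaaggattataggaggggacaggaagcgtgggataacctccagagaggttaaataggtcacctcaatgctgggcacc
Of 14 of the 20 largest rises with an entry, these were the only ones with the motif (14.3%). It was found in 986 of 15691 measured genes with an entry (6.28%), in 18 of 154 genes that rose at least 2-fold (11.7%) and in 6 of 86 that fell at least 2-fold (6.98%). These shares describe the letters in a window of 250 bases, not binding. Clca1, Muc5ac and the other genes with no entry are named only.

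Most CC chemokines rose, led by Ccl8 and the eotaxins. Of 20 CC chemokines, 11 rose and 0 fell, with a median of 0.63. Ccl8, a ligand of CCR8 in mice, stood at 5.16 to 7.91 (median 6.15) in controls and 9.60 to 13.21 (median 11.42) in MDI arrays and rose by 5.09 ± 0.38 (adjusted p = 7.68e-15). Control 2 was again the highest control and MDI 14 the lowest MDI array, and the groups did not overlap. Ccl11 (eotaxin), which recruits eosinophils through CCR3, stood at 8.15 to 9.56 (median 8.86) in controls and 10.97 to 14.74 (median 13.06) in MDI arrays and rose by 4.02 ± 0.37 (adjusted p = 1.05e-11). Ccl24 (eotaxin-2), made by macrophages and named after its values were seen, ranged widely among MDI arrays. It stood at 3.89 to 4.75 (median 4.14) in controls and 4.97 to 11.01 (median 7.20) in MDI arrays, with MDI 9 only just above the controls and MDI 3 the highest, and rose by 3.29 ± 0.53 (adjusted p = 1.61e-05). Its controls lay in the low part of the scale, and whether they were above background is not known. Ccl17, a ligand of CCR4 on T helper 2 cells, stood at 9.11 to 10.80 (median 9.90) in controls and 10.54 to 14.89 (median 12.36) in MDI arrays and rose by 2.70 ± 0.42 (adjusted p = 8.64e-06). MDI 9 lay within the range of the controls. Ccl12 and Ccl6 rose by 1.37 ± 0.19 and 1.24 ± 0.17. Of 17 CXC and other chemokines, 2 rose and 3 fell, with a median of 0.07. Cxcl14, an epithelial chemokine, fell by 1.32 ± 0.19 (adjusted p = 2.88e-06), and Cx3cl1 (fractalkine) fell by 1.00 ± 0.18.

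Most eosinophil genes rose. Of 12 measured, 9 rose and 0 fell, with a median of 1.06. Rnase2a, an eosinophil-associated ribonuclease, stood at 4.98 to 7.08 (median 5.74) in controls and 9.17 to 13.43 (median 11.38) in MDI arrays. The groups did not overlap, and it rose by 5.33 ± 0.42 (adjusted p = 5.65e-14). Alox15, which oxygenates arachidonic acid and is expressed by eosinophils and macrophages, stood at 6.28 to 7.96 (median 7.19) in controls and 9.27 to 12.40 (median 10.63) in MDI arrays and rose by 3.59 ± 0.32 (adjusted p = 4.13e-12), with no overlap. Ccr3, the eotaxin receptor, rose by 2.41 ± 0.35, and Il5ra, the receptor subunit for IL-5, rose by 1.20 ± 0.23. For each, 12 of 13 MDI arrays were above the highest control. Among members that were not called, named after their values were seen, Epx, the eosinophil peroxidase, had 0.13 ± 0.11 (adjusted p = 0.482) and Siglecf, a surface lectin of eosinophils and alveolar macrophages, had 0.23 ± 0.23 (adjusted p = 0.553). Of 16 mast cell and basophil genes, 3 rose and 2 fell, with a median of 0.06. With dim probe sets left out 0 of 3 rose and 2 fell, where 898 of 11103 probe sets rose and 1984 fell. The basophil protease Mcpt8 rose by 0.54 ± 0.13, the mucosal mast cell proteases Mcpt1 and Mcpt2 rose by 0.80 ± 0.20 and 0.64 ± 0.16, and Kit, the stem cell factor receptor, fell by 0.54 ± 0.12.

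Lipid mediator genes were led by a phospholipase. Of 23 eicosanoid synthesis and receptor genes, 6 rose and 1 fell, with a median of 0.14. Pla2g4c, a cytosolic phospholipase A2, stood at 3.44 to 4.24 (median 3.79) in controls and 6.43 to 8.88 (median 7.60) in MDI arrays. Every MDI array lay above every control, and it rose by 3.74 ± 0.27 (adjusted p = 3.07e-15). The table carries no detection call, so whether those controls, in the low part of the scale, were above background is not known, and the fold may understate the change. Tbxas1, the thromboxane synthase, rose by 1.34 ± 0.26, and Hpgds, the prostaglandin D synthase of blood cells, rose by 0.74 ± 0.17. Alox12, the platelet-type lipoxygenase, fell by 0.91 ± 0.24. Scin, an actin-severing protein outside the lists, had the largest t after Fcgbp. It stood at 5.63 to 6.30 (median 6.07) in controls and 7.83 to 9.72 (median 8.72) in MDI arrays, without overlap, and rose by 2.77 ± 0.18 (adjusted p = 8.5e-17).

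Macrophage genes rose for the alternatively activated, lipid-handling and interstitial states. Among 19 measured genes of the alternatively activated state, 13 were called higher and 2 lower, with a median of 0.91. Mgl2, a galactose-binding lectin of these cells and of dendritic cells, stood at 8.28 to 10.06 (median 9.27) in controls and 10.44 to 12.35 (median 11.38) in MDI arrays. The groups did not overlap, and Mgl2 rose by 2.28 ± 0.25 (adjusted p = 4.03e-09). The related lectin Clec10a rose by 1.36 ± 0.18 without overlap, the mannose receptor Mrc1 by 1.29 ± 0.19 and the folate receptor Folr2 by 1.29 ± 0.20. The members that fell were Tgm2, a transglutaminase, and Flt1, a vascular receptor that also belongs to the endothelial list. Of 17 lipid-handling and lysosomal genes, 8 rose and 0 fell, with a median of 0.44, and within the first block 5 rose. Mmp12, the macrophage elastase, stood at 9.00 to 12.38 (median 9.59) in controls and 12.64 to 17.15 (median 14.75) in MDI arrays. It rose by 4.95 ± 0.52 (adjusted p = 6.62e-10), and MDI 14 lay just above control 2. The lysosomal protease Ctsk rose by 2.37 ± 0.29, and Trem2, a lipid-sensing receptor, rose by 1.21 ± 0.25.

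Of 17 genes of interstitial macrophages and classical monocytes, 7 rose and 2 fell, with a median of 0.24. The complement subunit C1qb stood at 8.61 to 10.00 (median 9.06) in controls and 10.19 to 11.70 (median 10.55) in MDI arrays, without overlap, and rose by 1.66 ± 0.20 (adjusted p = 3.75e-08). C1qa and C1qc rose by 1.30 ± 0.22 and 1.20 ± 0.25. Ly6c2, a marker of classical monocytes, fell by 0.58 ± 0.13 (adjusted p = 0.000946). Alveolar macrophage genes were mixed, with 3 of 17 higher and 4 lower and a median of 0.03. Chil3 led the rises, and Fabp1, a fatty acid binding protein, fell by 1.04 ± 0.16 (adjusted p = 1.2e-05). Without control 2 or control 4, 1 of the list fell, and without control 1, MDI 3, MDI 4 or MDI 12 2 fell. Of 14 nonclassical monocyte genes, 2 rose and 6 fell, with a median of -0.38. Treml4 fell by 0.99 ± 0.22 (adjusted p = 0.0014) and Clec4a3 rose by 1.31 ± 0.22. Control 4 was the highest control for Treml4 and for Nr4a1 of the same list, and without it 3 fell.

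Complement genes rose at the level of C1q, the alternative pathway and the C3a receptor, while the receptors for C5a fell. Of 19 measured, 6 rose and 2 fell, with a median of 0.07. C3ar1, the C3a receptor, stood at 7.41 to 9.14 (median 8.19) in controls and 9.26 to 11.68 (median 10.46) in MDI arrays, without overlap, and rose by 2.31 ± 0.31 (adjusted p = 4.41e-07). Cfb, factor B of the alternative pathway, stood at 6.68 to 6.95 (median 6.84) in controls and 7.54 to 9.15 (median 8.25) in MDI arrays. The controls lay close together, below all MDI arrays, and Cfb rose by 1.45 ± 0.19 (adjusted p = 1.86e-07). C5ar1, the C5a receptor of myeloid cells, stood at 8.05 to 9.23 (median 8.66) in controls and 7.15 to 8.34 (median 7.55) in MDI arrays and fell by 1.02 ± 0.17 (adjusted p = 2.63e-05), and C5ar2 fell by 0.66 ± 0.17.

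Most T cell genes rose, and few B cell or cytotoxic genes were called. Of 20 T cell genes, 13 rose and 0 fell, with a median of 0.58. Icos, a costimulatory receptor, stood at 6.78 to 8.27 (median 7.88) in controls and 8.51 to 10.25 (median 9.50) in MDI arrays, without overlap, and rose by 1.75 ± 0.21 (adjusted p = 6.24e-08). Ctla4, an inhibitory receptor of activated and regulatory T cells, rose by 1.21 ± 0.22, and Ccr8, a receptor of T helper 2 and regulatory T cells, rose by 1.42 ± 0.27. Cd4 and Cd3e, named after their values were seen, had 0.24 ± 0.24 (adjusted p = 0.571) and 0.46 ± 0.27 (adjusted p = 0.292). Of 9 thymocyte genes, 3 rose, of which Themis and Cd8a are also on the T cell list. Dntt, Rag2 and Ptcra, genes of developing thymocytes named after their values were seen, had -0.07 ± 0.09, 0.19 ± 0.15 and 0.34 ± 0.15 (adjusted p 0.142 or more). The mean of the thymocyte list lay at 6.39 to 6.67 in controls and 6.56 to 7.06 in MDI arrays, and its part in the T cell result was not tested. Of 15 B cell genes, 0 rose and 1 fell (6.67%, against 9.79% of all genes), Ebf1, a transcription factor that other cell types express as well. With the 19 arrays alone, centred arrays, quantile normalization or the first block alone, 0 fell. Ms4a1 (CD20), named after its values were seen, stood at 6.61 to 7.62 (median 6.79) in controls and 6.04 to 7.83 (median 7.10) in MDI arrays, a difference of 0.09 ± 0.21 (adjusted p = 0.833). Of 14 natural killer and cytotoxic genes, 0 rose and 3 fell, with a median of -0.31. The perforin gene Prf1 fell by 0.56 ± 0.17 (adjusted p = 0.0219), and without control 2 or control 4 that call was lost (adjusted p up to 0.105). The number of falls was 0 without control 4, 1 without control 1, control 2, control 3, MDI 2, MDI 5 or MDI 7, and 5 within the first block.

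Antigen presentation genes rose or were not called. Of 12 MHC class II presentation genes, 7 rose and 0 fell, with a median of 0.60. Ctss, the protease that trims the invariant chain, stood at 13.51 to 14.66 (median 14.12) in controls and 14.64 to 16.64 (median 15.60) in MDI arrays and rose by 1.40 ± 0.22 (adjusted p = 9.41e-06). MDI 14 and 1 more MDI array did not exceed the highest control. H2-Eb1, a class II chain, rose by 1.18 ± 0.24, and Ifi30, a lysosomal thiol reductase, rose by 1.12 ± 0.20. Of 19 dendritic cell genes, 8 rose and 0 fell, with a median of 0.43, among them Mgl2, Itgax (by 1.33 ± 0.29) and Cd209a (by 0.91 ± 0.22). Within the first block 3 class II and 5 dendritic cell genes rose. Without control 6 the class II count was 4, and without control 3 the dendritic cell count was 5.

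Most type 2 cytokines and alarmins did not pass the test, and those that did rose. Of 16 type 2 cytokine and alarmin genes, 5 rose (31.25%, against 5.37% of all genes) and 0 fell, with a median of 0.23. Il33, an alarmin released by epithelium and other lung cells, was the clearest. It stood at 11.88 to 13.25 (median 12.89) in controls and 13.21 to 15.52 (median 14.60) in MDI arrays, where MDI 14 alone lay within the range of the controls, and rose by 1.78 ± 0.25 (adjusted p = 1.48e-06). Il4 stood at 4.15 to 5.30 (median 4.62) in controls and 4.82 to 7.08 (median 5.77) in MDI arrays and rose by 1.20 ± 0.22 (adjusted p = 0.000125), with 10 of 13 MDI arrays above the highest control. Il13 stood at 4.27 to 4.70 (median 4.64) in controls and 4.30 to 5.61 (median 4.90) in MDI arrays and rose by 0.43 ± 0.14 (adjusted p = 0.0329). That call was lost without MDI 5, MDI 8, MDI 12, control 1 or control 5, with an adjusted p of up to 0.103, and within the first block (0.23). Il5 had 0.05 ± 0.17 (adjusted p = 0.893). Il5 and Il13 lay between 4.27 and 6.48 on every array and Il4 between 4.15 and 7.08, in the lower part of the scale. No detection call is given for them. Il17rb, the receptor for IL-25, rose by 0.81 ± 0.20. The count of 5 fell to 3 without MDI 8, MDI 12, control 1 or control 5.

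More genes of IL-4 and IL-13 signalling fell than rose. Of 16 IL-4 and IL-13 signalling genes, 1 rose and 4 fell, with a median of -0.04. Stat6, the transcription factor of this pathway, stood at 12.77 to 13.20 (median 12.94) in controls and 11.68 to 12.71 (median 12.37) in MDI arrays. Every MDI array lay below every control, and Stat6 fell by 0.63 ± 0.11 (adjusted p = 3.3e-05). Stat3 fell by 0.51 ± 0.12 (adjusted p = 0.00304). The kinase gene Jak2 rose by 0.56 ± 0.15 (adjusted p = 0.00569), a call that the first block alone did not give (adjusted p = 0.0716). Il4ra, the shared receptor chain, named after its values were seen, had 0.03 ± 0.15 (adjusted p = 0.943).

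Most genes of the cell cycle rose. Of 27 measured, 22 rose and 0 fell, with a median of 0.99. Mki67, the antigen Ki-67 of dividing cells, stood at 9.04 to 11.08 (median 9.32) in controls and 10.87 to 13.02 (median 11.87) in MDI arrays. Control 2, at 11.08, was the highest control, 11 of 13 MDI arrays lay above it, and Mki67 rose by 2.19 ± 0.31 (adjusted p = 1.35e-06). Kif11, a motor of the mitotic spindle, rose by 1.60 ± 0.26 (adjusted p = 1.65e-05). Birc5 (survivin) stood at 6.50 to 6.97 (median 6.75) in controls and 7.36 to 8.40 (median 7.57) in MDI arrays, without overlap, and rose by 0.98 ± 0.17 (adjusted p = 5.74e-05). Tpx2, a spindle assembly factor, rose by 1.37 ± 0.27, and Mcm6, a subunit of the replicative helicase, rose by 0.92 ± 0.19.

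Matrix, protease and contractile genes moved by smaller amounts. Of 25 collagens and matrix genes, 10 rose and 0 fell, with a median of 0.43. Col3a1, a fibrillar collagen, stood at 11.96 to 13.74 (median 12.78) in controls and 13.54 to 15.41 (median 14.39) in MDI arrays. Control 2 was the highest control, 10 of 13 MDI arrays were above it, and Col3a1 rose by 1.58 ± 0.21 (adjusted p = 6.62e-07). Col1a1 rose by 1.27 ± 0.25 and Postn (periostin), a matrix protein induced by IL-13, by 0.71 ± 0.16. Within the first block 4 of the list rose. Of 19 matrix proteases and inhibitors, 5 rose and 4 fell. The serpin Serpinb2 rose by 2.11 ± 0.36 (adjusted p = 4.69e-05), and the tissue inhibitors moved apart: Timp1 rose by 1.83 ± 0.46 (adjusted p = 0.00457) while Timp3 fell by 1.16 ± 0.21 (adjusted p = 0.000101). Timp1 was not called in the first block alone (adjusted p = 0.0545). Of 16 smooth muscle and pericyte genes, 5 rose and 4 fell, but 1 fell without control 3 and 2 without control 4, and within the first block 3 rose and 2 fell. The actins Acta2 and Actg2 rose by 0.73 ± 0.13 and 1.26 ± 0.24, and Acta2 did not overlap between groups. Pdgfrb, a pericyte receptor, fell by 0.80 ± 0.15 (adjusted p = 0.000122). Of 17 genes of vascular adhesion and coagulation, 3 rose and 2 fell, with the clotting factors F7 and F10 up by 1.69 ± 0.28 and 1.17 ± 0.23. Of 17 arginine and polyamine genes, 4 rose and 1 fell. Arg1 (arginase of alternatively activated macrophages) stood at 4.77 to 6.04 (median 5.77) in controls and 6.85 to 11.08 (median 8.10) in MDI arrays, where MDI 3 was the highest, and rose by 2.78 ± 0.45 (adjusted p = 1.73e-05). The arginine transporter Slc7a2 and the creatine-synthesizing enzyme Gatm rose by 1.57 ± 0.19 and 2.25 ± 0.29, all 3 without overlap.

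Many enzymes that metabolize foreign compounds fell, and several were among the largest falls. Of 22 xenobiotic metabolism genes, 0 rose and 12 fell, with a median of -0.72. Cyp2a5, a cytochrome P450 that oxidizes nicotine and coumarin, stood at 10.17 to 12.51 (median 11.88) in controls and 7.28 to 11.08 (median 9.23) in MDI arrays. MDI 2 and 1 more MDI array lay within the range of the controls, and Cyp2a5 fell by 2.51 ± 0.45 (adjusted p = 8.09e-05). Its near-identical neighbour Cyp2a4, outside the lists, stood at 7.82 to 9.12 (median 8.27) in controls and 5.64 to 7.67 (median 6.74) in MDI arrays, without overlap, and fell by 1.69 ± 0.28 (adjusted p = 3.07e-05). Probes of such close paralogs may share signal. Pon1, an esterase that hydrolyses organophosphates, stood at 12.29 to 13.51 (median 13.02) in controls and 9.65 to 12.36 (median 11.02) in MDI arrays and fell by 2.08 ± 0.36 (adjusted p = 6.6e-05). One MDI array, MDI 5, overlapped the controls. Cyp2s1 fell by 1.40 ± 0.22, Sult1d1 (a sulfotransferase) fell by 1.60 ± 0.31 and Ephx1 (microsomal epoxide hydrolase) fell by 0.86 ± 0.15, the last without overlap. Cyp26b1, which clears retinoic acid, fell by 1.67 ± 0.53 (adjusted p = 0.0272). This call was lost without control 4, 5 or 6 (adjusted p up to 0.129) and within the first block (0.107).

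**Figure D3:**
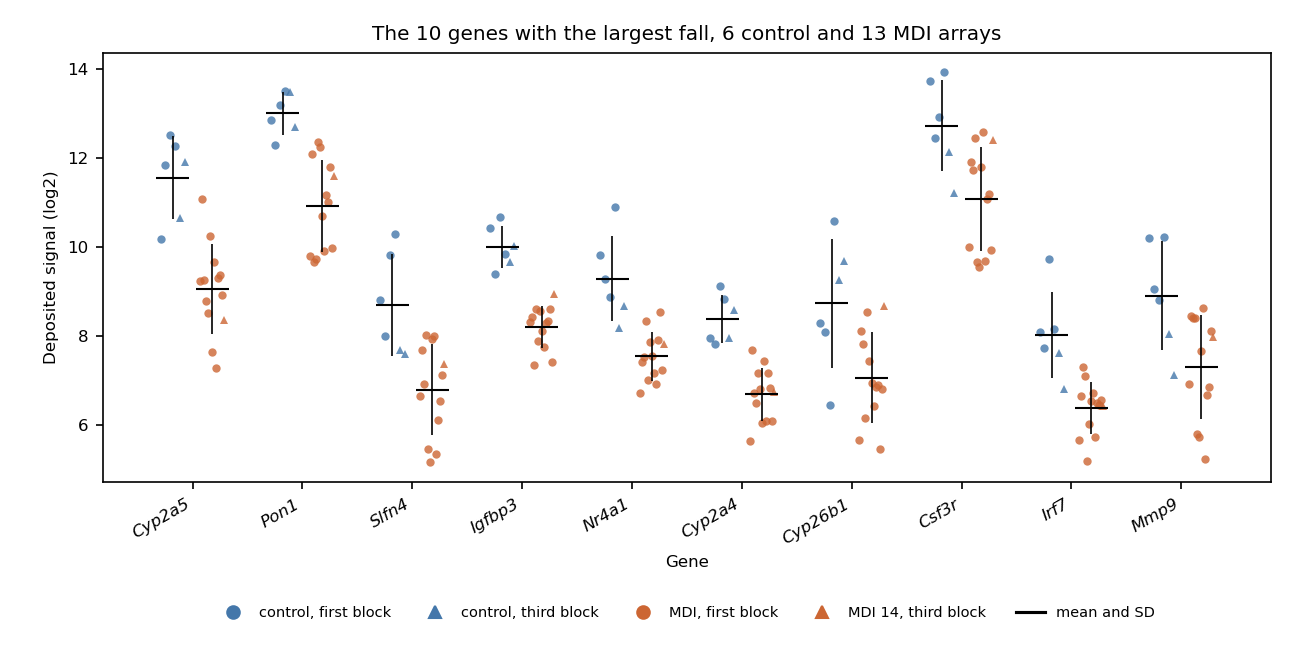
Deposited log2 signal (vertical axis) of the 10 genes with the largest fall on each array, 6 controls in blue and 13 MDI arrays in orange, with mean and SD. Triangles are arrays of the third block. The groups overlap in 8 of the 10 genes, and Igfbp3 and Cyp2a4 are the 2 with every MDI array below every control.

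Glutathione transferases conjugate reactive chemicals. Both airway solutions were made from MDI and glutathione, reacted together for MDI mice and apart for controls, and a link to these genes was not tested. Of 30 glutathione and thiol genes, 2 rose and 8 fell, with a median of -0.19. Gstm1 fell by 0.92 ± 0.16 (adjusted p = 7.65e-05), with 12 of 13 MDI arrays below the lowest control, and Gstm2 fell by 0.65 ± 0.14. Gclc, the catalytic subunit of the rate-limiting enzyme of glutathione synthesis, rose by 0.72 ± 0.15 (adjusted p = 0.00059). Gsto1, an omega-class transferase, rose by 0.86 ± 0.23 (adjusted p = 0.00683) and was not called in the first block alone (adjusted p = 0.124), where 3 of the list fell.

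More markers of the resident epithelium fell than rose, as did all genes (9.79% fell and 5.37% rose). With dim probe sets left out, 1984 of 11103 probe sets fell and 898 rose, and the counts here are to be read against those. Of 16 club cell genes, 2 rose and 6 fell, with a median of -0.56. Scgb1c1, a secretoglobin, stood at 8.98 to 10.14 (median 9.57) in controls and 7.43 to 8.80 (median 8.33) in MDI arrays, without overlap, and fell by 1.28 ± 0.18 (adjusted p = 1.24e-06). Cyp2f2, the club cell cytochrome, fell by 0.77 ± 0.16 without overlap and Scgb3a2 fell by 0.81 ± 0.19. Scgb1a1 had -0.03 ± 0.05 (adjusted p = 0.749), at the top of the scale. Reg3g, a secreted antimicrobial lectin, rose by 2.15 ± 0.63 (adjusted p = 0.0163), but controls ran from 9.37 to 15.51 and the call was lost without control 1 or control 5 (adjusted p up to 0.106) and within the first block (0.293). Of 16 alveolar type 1 genes, 0 rose and 9 fell, with a median of -0.45. Gprc5a fell by 0.55 ± 0.11 and Akap5 by 0.76 ± 0.18, and 4 fell in the first block alone. Of 18 alveolar type 2 and surfactant genes, 2 rose and 5 fell. The surfactant proteins moved apart. Sftpb, which the surfactant film needs, fell by 0.63 ± 0.10 (adjusted p = 1.63e-05), while Sftpd, a collectin of host defence, rose by 0.57 ± 0.13 (adjusted p = 0.00239) and was not called in the first block alone (adjusted p = 0.0561). Sftpc had -0.01 ± 0.05 (adjusted p = 0.963), at the top of the scale. The number of type 2 genes that fell was 2 without control 2 or control 3, and 3 without control 4, control 5, MDI 3 or MDI 4. Of 24 ciliated cell genes, 1 rose and 4 fell, with a median of -0.29, and leaving out 1 array moved the falls to between 2 (without MDI 1, 3, 4, 7 or 8, or control 2 or 3) and 6 (without MDI 5 or MDI 6). The ciliogenesis factor Rfx2 fell by 0.70 ± 0.16. With the 19 arrays alone, 2 ciliated and 2 alveolar type 2 genes fell. Of 16 basal and squamous genes only Aqp3 rose, and of 15 tuft and neuroendocrine genes 2 rose, Sox9 by 0.88 ± 0.22 and Gfi1b by 0.57 ± 0.17. The call of Gfi1b was lost without control 6 (adjusted p = 0.0553).

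Most endothelial genes fell. Of 24 measured, 0 rose and 14 fell, with a median of -0.49. The number that fell was 10 with the 19 arrays alone, 12 in the first block alone, 9 with block as a term and 15 without MDI 1. Kdr, the VEGF receptor of capillaries, stood at 15.42 to 15.84 (median 15.57) in controls and 13.97 to 15.31 (median 15.06) in MDI arrays. Every MDI array lay below every control, with MDI 1 the lowest, and Kdr fell by 0.74 ± 0.14 (adjusted p = 0.000221). Aplnr, the apelin receptor, fell by 0.98 ± 0.15 (adjusted p = 1.04e-05). The angiopoietin receptor Tek and the adhesion molecule Pecam1 fell by 0.75 ± 0.16 and 0.49 ± 0.10. Falls with the largest t lay outside the lists. Igfbp3, a carrier of insulin-like growth factors, stood at 9.40 to 10.68 (median 9.92) in controls and 7.35 to 8.93 (median 8.30) in MDI arrays, without overlap, and fell by 1.81 ± 0.20 (adjusted p = 2.3e-09). Lipg, the endothelial lipase, stood at 10.41 to 10.71 (median 10.51) in controls and 9.04 to 10.10 (median 9.57) in MDI arrays and fell by 1.01 ± 0.13 (adjusted p = 1.79e-07). The controls lay close together, above every MDI array. Eps8l2, an actin-binding protein, fell by 1.32 ± 0.17, Mcc by 1.16 ± 0.15 and Chst1, a sulfotransferase, by 1.13 ± 0.15, all without overlap.

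Many interferon-stimulated genes fell. Of 24 measured, 0 rose and 13 fell, with a median of -0.42. Irf7, a transcription factor that amplifies the interferon response, stood at 6.79 to 9.72 (median 7.91) in controls and 5.17 to 7.30 (median 6.49) in MDI arrays. Control 3 was the highest, 11 of 13 MDI arrays were below the lowest control, and Irf7 fell by 1.65 ± 0.29 (adjusted p = 8.03e-05). Cmpk2, a nucleotide kinase of the antiviral response, stood at 8.59 to 9.61 (median 8.78) in controls and 7.72 to 8.43 (median 8.13) in MDI arrays, without overlap, and fell by 0.74 ± 0.12 (adjusted p = 1.67e-05). Oas2, a sensor of double-stranded RNA, fell by 1.15 ± 0.21, Rsad2 (viperin) by 0.93 ± 0.17 and Usp18 by 0.67 ± 0.14. Control 3 was the highest control for Irf7, Oas2, Rsad2, Usp18 and Cmpk2, and without it 7 of the 24 fell. Of 15 genes induced by interferon gamma, 0 rose and 5 fell, and 2 fell without control 3 or control 4. Igtp, a GTPase of that response, fell by 0.82 ± 0.20 (adjusted p = 0.0028).

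Upstream sequence of Ifit3 and Rsad2 is shown because many of the interferon-stimulated genes hold the same motif. The run TTTC, any 2 bases and TTTC, the core of the interferon-stimulated response element, was searched on both strands in the same 250 bases. It was found in 9 of 16 interferon-stimulated genes with an entry (56.2%), against 544 of 15691 genes (3.47%). Ifit3, an antiviral protein named here for its sequence, stood at 11.09 to 12.42 (median 11.70) in controls and 10.33 to 11.49 (median 11.11) in MDI arrays and fell by 0.70 ± 0.18 (adjusted p = 0.00664). It lies at chr19:34583279-34583528 (plus strand), with matches from -156 and -122, and Rsad2 at chr12:26456453-26456702 (minus strand), with a match from -120. Matches are in capitals.
Ifit3: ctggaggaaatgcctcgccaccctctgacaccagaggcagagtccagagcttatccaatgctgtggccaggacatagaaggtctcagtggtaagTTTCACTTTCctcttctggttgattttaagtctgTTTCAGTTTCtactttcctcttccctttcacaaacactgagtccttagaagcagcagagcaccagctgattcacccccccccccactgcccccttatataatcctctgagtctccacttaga
Rsad2: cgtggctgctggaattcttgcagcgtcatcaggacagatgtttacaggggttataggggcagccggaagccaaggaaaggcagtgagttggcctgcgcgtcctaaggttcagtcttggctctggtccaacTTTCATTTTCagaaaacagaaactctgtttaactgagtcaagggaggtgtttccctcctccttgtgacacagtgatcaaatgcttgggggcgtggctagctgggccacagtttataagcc
The genes with a match were Isg15, Ifit1, Ifit3, Oas1a, Oas3, Rsad2, Stat2, Bst2 and Trim30a, and Oas1a and Stat2 hold the motif shown for Retnla as well. Only 2 of 86 genes that fell at least 2-fold held the TTTC motif (2.33%), and 10 of 154 that rose at least 2-fold (6.49%). The element is named for such genes, so its share among them describes the list and not the effect of MDI. These shares too describe letters, not binding.

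More neutrophil genes fell than rose, and they varied between arrays. Of 16 measured, 2 rose and 6 fell, with a median of -0.84, which was -1.46 within the first block. With the 19 arrays alone 2 rose and 4 fell, and with block as a term 0 rose and 4 fell. Without control 3, control 5 or control 6, 1 rose, and without control 3 or control 4, 4 fell. Csf3r, the receptor for granulocyte colony-stimulating factor, stood at 11.22 to 13.93 (median 12.69) in controls and 9.55 to 12.59 (median 11.19) in MDI arrays. The groups overlapped, with control 4 the highest and MDI 6 the lowest, and Csf3r fell by 1.65 ± 0.40 (adjusted p = 0.00284). Mmp9, a gelatinase stored in neutrophil granules, stood at 7.12 to 10.22 (median 8.93) in controls and 5.22 to 8.62 (median 7.66) in MDI arrays and fell by 1.62 ± 0.42 (adjusted p = 0.00557). Il1b fell by 1.46 ± 0.36 and Trem1, an activating receptor, by 1.24 ± 0.24. Slfn4, a myeloid gene outside the lists, stood at 7.59 to 10.28 (median 8.40) in controls and 5.15 to 8.01 (median 6.92) in MDI arrays and fell by 1.90 ± 0.36 (adjusted p = 0.000155). The members that rose were Lcn2, an iron-binding protein that epithelium also makes (by 0.85 ± 0.21), and Retnlg. S100a8, a main cytosolic protein of neutrophils, named after its values were seen, had -1.41 ± 0.59 (adjusted p = 0.103). It varied widely among the MDI arrays, from 7.24 on MDI 9 to 12.93 on MDI 8.

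Immediate early genes, which respond to stimuli within minutes, fell in most cases. Of 22 measured, 0 rose and 14 fell, with a median of -0.65. Nr4a1, an orphan nuclear receptor, stood at 8.18 to 10.89 (median 9.08) in controls and 6.71 to 8.54 (median 7.51) in MDI arrays, with 11 of 13 below the lowest control, and fell by 1.75 ± 0.31 (adjusted p = 8.76e-05). Its relative Nr4a2 fell by 1.17 ± 0.18 (adjusted p = 6.06e-06) without overlap. Dusp1, a phosphatase that ends MAP kinase signals, fell by 1.33 ± 0.27, and Zfp36, which destabilizes cytokine mRNA, fell by 1.24 ± 0.24. Control 4 was the highest control for Nr4a1 and Dusp1. Of 13 heat shock genes, 0 rose and 3 fell, with a median of 0.0073. Bag3, a co-chaperone, fell by 1.07 ± 0.17 (adjusted p = 1.47e-05), and Cryab fell by 0.54 ± 0.11. Of 16 glucocorticoid-responsive genes, 1 rose and 4 fell, with Cdkn1a, a cell cycle inhibitor, lower (it fell by 1.00 ± 0.22).

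Clock genes moved in opposite directions. Of 18 measured, 3 rose and 3 fell, with a median of -0.01. Npas2, a positive arm of the clock, stood at 7.64 to 9.27 (median 8.46) in controls and 5.70 to 7.49 (median 7.18) in MDI arrays, without overlap, and fell by 1.35 ± 0.23 (adjusted p = 3.96e-05). Arntl (BMAL1), its partner, fell by 0.98 ± 0.19 (adjusted p = 0.000328). Dbp, an output gene that peaks when Arntl is low, stood at 11.41 to 14.57 (median 13.85) in controls and 13.76 to 15.32 (median 14.89) in MDI arrays and rose by 1.06 ± 0.32 (adjusted p = 0.0173), a call lost without control 4 (adjusted p = 0.171). The labels used here give no hour of sampling. Without control 3 or control 4, 1 clock gene rose.

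The signal of heart muscle and fat cell genes varied from array to array in both groups. Of 10 heart muscle genes and 8 fat cell genes, 0 were called. The mean of the heart list ran from 7.81 to 10.65 in controls and 8.19 to 10.06 in MDI arrays, and that of the fat list from 5.20 to 7.80 and 4.37 to 7.18. Nppa, an atrial peptide, ran from 6.02 to 11.68 in controls and 6.94 to 12.53 in MDI arrays, and Adipoq, a fat cell hormone, from 6.46 to 11.69 and 5.19 to 9.81. Of 10 red blood cell genes 4 were measured and 1 rose, Epb42 by 0.31 ± 0.10, a call lost without any of 9 of the 19 arrays in turn (adjusted p up to 0.0803), with list means of 5.54 to 6.22 in controls and 5.49 to 6.17 in MDI arrays. Where the signal of these genes came from, and its part in the results above, were not tested. MDI 8 alone held high Krt4 (9.15) and Krt13 (8.90), keratins of squamous epithelium, for which the other 18 arrays did not exceed 5.18 and 5.40.

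MDI arrays differed among themselves in how far they had moved. For the 10 genes with the largest rise, the median distance from the control median was 3.44 on MDI 14 and 7.03 on MDI 12, and it was 1.54 on control 2. For the 10 with the largest fall it ran from -0.78 on MDI 2 to -2.50 on MDI 1. These genes were chosen on the same arrays, so the distances are a description. Of 191 genes called at least 2-fold higher, MDI 12 was the highest MDI array in 78 and MDI 3 in 58, MDI 14 was the lowest in 53, and control 2 was the highest control in 127 (66.5%). Of 110 called at least 2-fold lower, MDI 1 was the lowest in 41, and control 4 was the highest control in 59 (53.6%). Without control 2 the rises were larger, at 8.93 for Clca1 and 6.16 for Retnla, and calls over all probe sets numbered 2435.

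**Figure D4:**
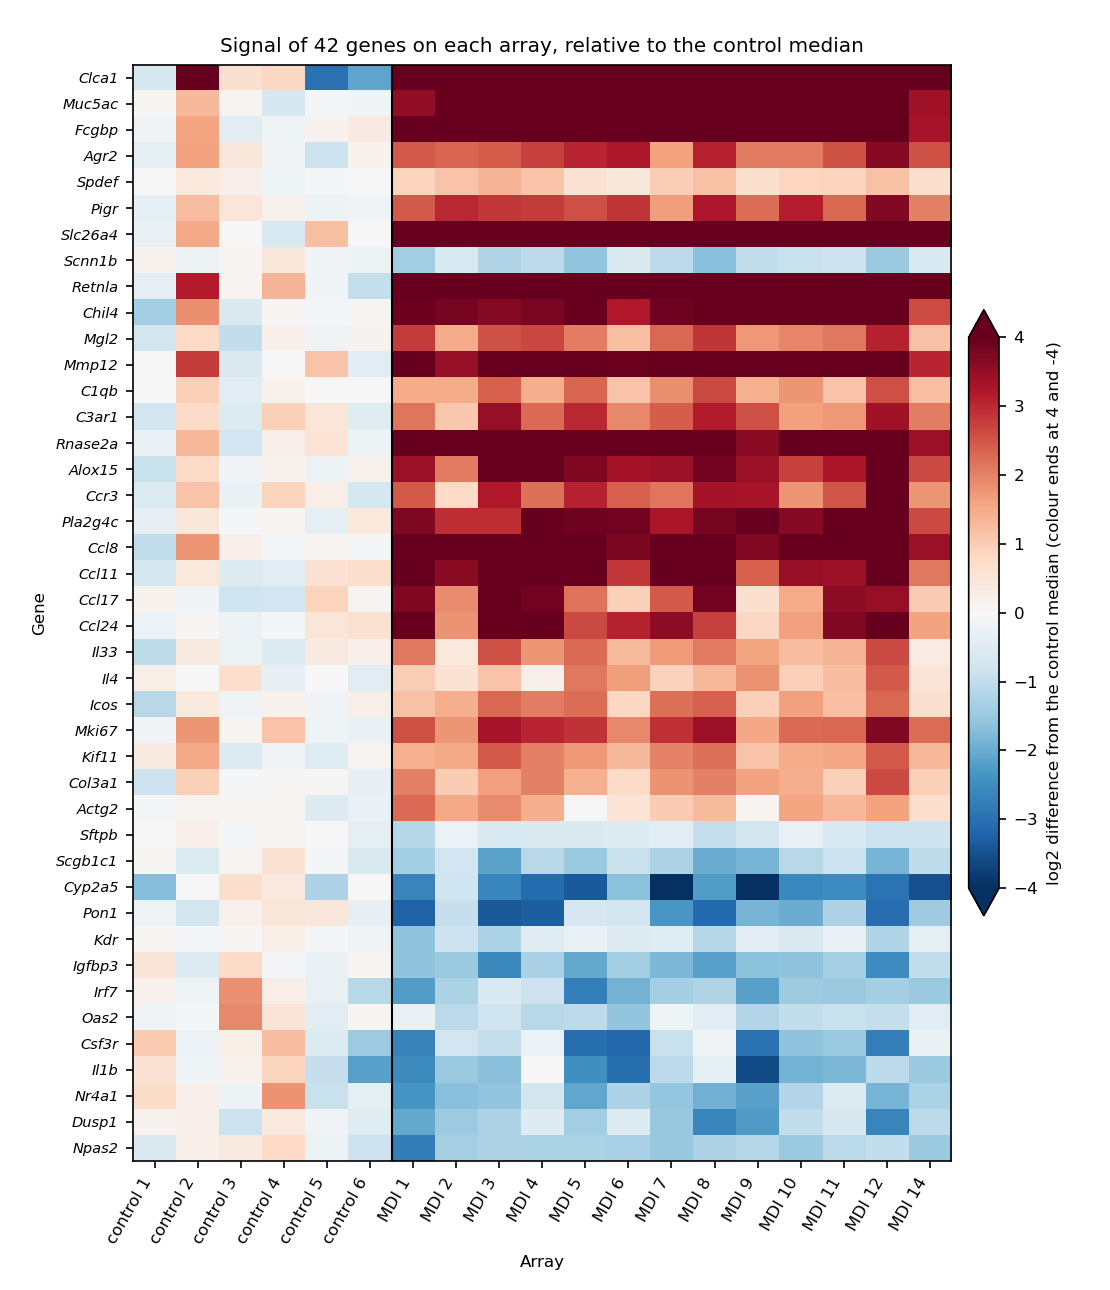
Difference of each array from the control median (colour, log2, ending at 4 and -4) for 42 genes in rows and the 6 control and 13 MDI arrays in columns. Control 2 is raised for Clca1, Retnla, Mmp12 and Ccl8, and control 3 is raised for Irf7 and Oas2.

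Whether the airway, eosinophil, cell cycle and interferon genes varied together was examined over the 13 MDI arrays in 15 pairs of genes. Rnase2a and Mki67 were correlated, with Pearson's r = 0.881 (permutation p = 0.00015, 0.00225 after Benjamini-Hochberg adjustment) and Spearman's rho = 0.912 (permutation p = 5e-05, adjusted 0.00075). Within the first block (12 arrays) r was 0.917, and without MDI 12 and MDI 14, the arrays farthest from the median of Rnase2a, it was 0.890. In the other pairs r had adjusted permutation p of 0.163 or more. The next highest was Retnla with Mki67, at r = 0.605 (rho 0.610, permutation p = 0.0287 and 0.0310), which was 0.590 within the first block and 0.305 without MDI 2 and MDI 12. Clca1 with Retnla had r = 0.580 (rho 0.484, permutation p = 0.0384 and 0.0966), and 0.423 without MDI 8 and MDI 12. Retnla with Rnase2a had r = 0.569 (rho 0.451, permutation p = 0.0434 and 0.125), and 0.376 without MDI 2 and MDI 12. The adjusted p of these 3 was 0.163. Muc5ac with Rnase2a had r = 0.413 (rho 0.418, permutation p = 0.162 and 0.157), Clca1 with Rnase2a r = 0.147 (rho 0.099, permutation p = 0.629 and 0.750) and Clca1 with Muc5ac r = 0.449 (rho 0.489, permutation p = 0.124 and 0.0937). Without MDI 1 and MDI 14, Muc5ac with Rnase2a had 0.292. Without MDI 8 and MDI 12, Clca1 with Rnase2a had -0.356 and Clca1 with Muc5ac 0.187. All of these genes had been chosen because they move with MDI, and the arrays share the scale on which each was normalized.

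**Figure D5:**
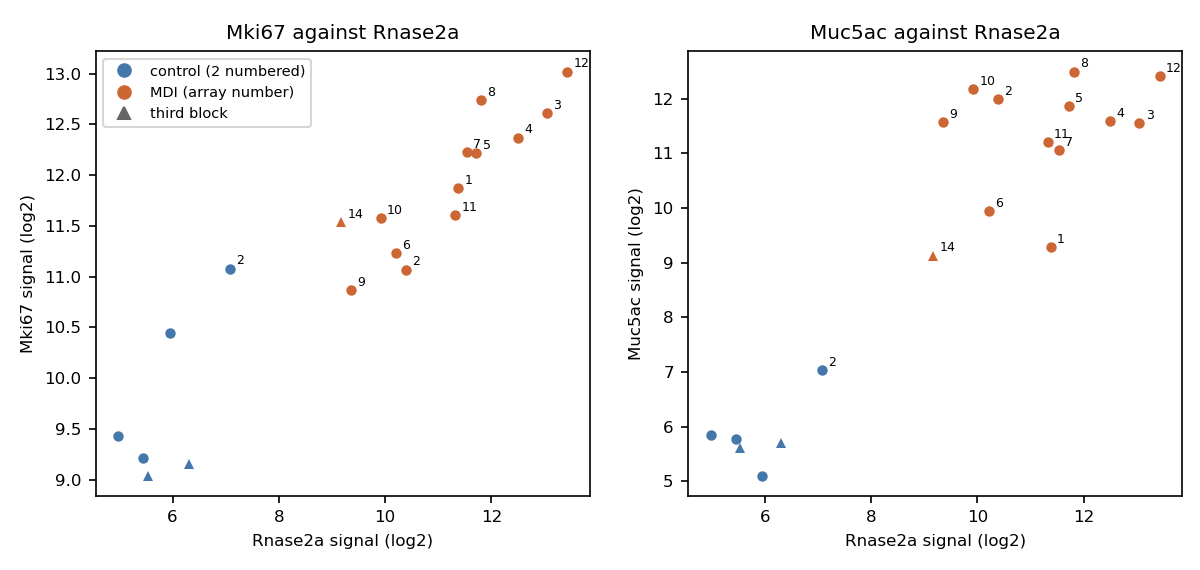
Log2 signal of Mki67 (left) and Muc5ac (right) against that of Rnase2a on 6 control arrays in blue and 13 MDI arrays in orange, with triangles for the third block and numbers for MDI arrays and control 2. Among MDI arrays Mki67 rises with Rnase2a (r = 0.881), while Muc5ac scatters (r = 0.413).

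The effect of MDI in C57BL/6 mice was set against that in 6 BALB/c and 16 B-cell deficient arrays, which share no control with it. BALB/c minus C57BL/6 gave 6 probe sets (0.027%), and 183 with array weights, of which 143 were higher. B-cell deficient minus C57BL/6 gave 4502 (20.3%), of which 2059 were higher. With dim probe sets left out 1622 of 1909 were higher, and with arrays centred on their median 1476 of 5173. The balance of directions in this contrast thus rests on the scaling and the probe sets kept. All 9 B-cell deficient controls were in the second block and 4 of the 7 MDI arrays in the first. With block as a fixed term over all sets the count was 2444, and with each effect taken within 1 block (C57BL/6 in the first, 3 MDI and 9 control B-cell deficient arrays in the second) it was 1527. Whether these sets were normalized together is not given in the sources used here, and the part of that in these contrasts was not tested. Of the 35 genes named by size or t or as fixed genes of the pathway, 1 differed from BALB/c and 9 from B-cell deficient mice. Pla2g4c rose by 3.74 ± 0.27 in C57BL/6 and had 0.07 in BALB/c mice, a difference of -3.67 (adjusted p = 5e-05). The effect on Slfn4 in B-cell deficient mice was 0.13, a difference of 2.04 (adjusted p = 0.00442), which was 2.14 with the block term and 2.58 within blocks (adjusted p = 0.0201 and 0.0130). For Clca1, Muc5ac, Fcgbp, Slc26a4 and Retnla neither difference passed the test, which does not show that the effects were equal.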

How the data were processed

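Lung RNA was measured on 51 1-colour arrays, and the values used are the log2 signal deposited by the authors for 22206 probe sets. The log2 scale was inferred from the values. The deposited table comes from Transcriptome Analysis Console per the submitters' processing notes. Its version, its normalization and any filter: not given in the sources used here. Of the probe sets, 19572 have 1 gene symbol and 2634 have none, and for the 55 symbols with several probe sets 1 represents the gene. The 2 arrays with contradictory labels entered no group.

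A model with a mean for each of 8 groups was fitted to 49 arrays with limma 3.58.1 in R 4.3.3 (moderated, intensity trend, 41 residual degrees of freedom). Benjamini-Hochberg adjusted p-values over all probe sets were 2-sided and called under 0.05. Errors beside fold changes are standard errors on the log2 scale. Differences between sets are interaction contrasts of this fit. Array number limits precision, since the files hold no counts.

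The 50 gene lists (932 entries, 856 with a probe set) and the members were chosen with earlier results of these data known. Named were the 10 largest changes and 6 largest moderated t in each direction, up to 5 members of each list and direction by adjusted p, and fixed genes of the pathway. Others are marked in the text. Promoter sequence is from RefSeq (GRCm38.p6). Alternatives covered scaling, dim probe sets, variance settings, array weights, blocks of records and leaving out each array. Correlations used 100000 permutations in Python 3.11.15 with scipy 1.17.1.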

Additional observations from a re-analysis of the deposited data

Results flagged for a closer look

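Among the 35 genes named by size, by t or as fixed genes of the pathway, the effect of MDI differed between B-cell deficient and C57BL/6 mice in 9, by a contrast of the limma fit with p adjusted over all probe sets. Differences are B-cell deficient minus C57BL/6 on the log2 scale. Rnase2a had 2.22 (adjusted p = 0.00761). The myeloid genes Slfn4, Csf3r and Mmp9 had 2.04 (0.00442), 2.10 (0.0079) and 3.42 (0.000198), and Irf7 had 3.40 (2.64e-06). Lipg had 0.56 (0.0256), Chst1 1.21 (0.000203), Il4 1.46 (0.00141) and Stat6 0.64 (0.00267). The B-cell deficient groups are unevenly spread over the blocks of records, with all 9 controls in the second. With block as a fixed term over all sets 8 of these 9 differences passed the test and Csf3r did not (1.82, adjusted p = 0.0699). With each effect taken within 1 block all 9 passed, Rnase2a by the least (adjusted p = 0.0489). Over all probe sets 20.3% passed this contrast, so such a share of the named genes is close to the background. All 9 differences are positive. Calls were higher in 2059 of 4502 probe sets, in 1622 of 1909 with dim probe sets left out and in 1476 of 5173 with centred arrays. The 9 genes in those settings are not given here.

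Pla2g4c was the 1 gene of these whose effect differed between BALB/c and C57BL/6 mice, by -3.67 (adjusted p = 5e-05), where 0.027% of probe sets (6) passed, and 183 with array weights. None of the 35 genes had an outlying control array by Dixon's test (critical value 0.625 for 6 arrays), and the MDI group is too large for that test. It takes each gene alone, so it cannot tell of an array shifted over many genes. Control 2 was the highest control in 127 of 191 genes called at least 2-fold higher, and control 4 in 59 of 110 called at least 2-fold lower.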

How the results depend on the processing

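The 3225 calls in C57BL/6 became 1532 in the first block alone and 1585 with block as a fixed term, with fewer controls or fewer degrees of freedom for the contrast. Both were fitted to C57BL/6 arrays without the other groups, and the 19 arrays alone, fitted in that way with no block term, gave 2192. The replicate numbers did not pair the arrays (correlations of same-numbered deviations from -0.222 to 0.184). A replicate block over the 12 arrays numbered 1 to 6 gave 930 calls, against 786 for the same 12 arrays with no block, chosen after seeing the data. Leaving out 1 array gave 2278 (without control 4) to 3489 (without MDI 2), and leaving out both MDI 1 and MDI 14, also chosen after seeing the data, gave 2995. The other settings gave 2192 (19 arrays alone) to 3776 (array weights). Of 248 named and called genes (204 where dim probe sets were left out), 0 changed direction in any setting run, and the call was lost in 59 in the first block, 61 with block as a term, 41 with 19 arrays alone, 82 with the replicate block, 14 with centred arrays and 1 to 38 when 1 array was left out. The 6 calls of the difference from BALB/c became 3 without dim probe sets and 183 with array weights, and 3 to 10 without 1 array. The 4502 of the difference from B-cell deficient mice became 1909 without dim probe sets, 5173 with centred arrays and 3035 with quantile normalization within sets. With block as a fixed term over all sets the count was 2444, and with each effect taken within 1 block 1527 (both chosen after seeing the data). Without 1 array it was 3524 to 5160. The causes were not tested. Genes at the top of the scale, such as Sftpc and Scgb1a1, have limited room to show a difference. Those at its low end, such as Il5, have limited room to show a fall.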

Other observations

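The 2 arrays with contradictory labels were given no group, and their values are shown on their own. The array titled MDI Exposed + Crofelemer 4 had Clca1 at 15.94, Muc5ac at 7.85, Rnase2a at 6.53, Retnla at 18.26 and Mki67 at 11.71 on the log2 scale. The array titled MDI Exposed 13 had Clca1 at 19.24, Muc5ac at 11.99, Rnase2a at 12.01, Retnla at 19.13 and Mki67 at 13.16. The matrix gene Tnc stood at 13.16 on the former and 10.85 on the latter, against 8.30 to 10.18 in C57BL/6 controls and 8.33 to 10.81 in C57BL/6 MDI arrays. Array means were 7.45 and 7.50.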
